A study of Homo sapiens with 16 samples.

Results

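The genes described here are the HLA class I heavy chains HLA-B, HLA-C, HLA-E and HLA-F, their shared light chain B2M, and the genes that load peptides onto them: TAP1, TAP2, TAPBP and TAPBPL. Every array probe set annotated to one of these 9 genes and to no other gene was taken, which gave 26 of the 54675 probe sets measured. The 26 probe sets comprise 3 for HLA-B, 4 for HLA-C, 3 for HLA-E, 3 for HLA-F, 3 for B2M, 1 for TAP1, 4 for TAP2, 3 for TAPBP and 2 for TAPBPL.

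Class I molecules display short peptides from inside the cell to cytotoxic T cells and to natural killer cells, and some tumours reduce this display. A heavy chain folds in the endoplasmic reticulum with beta-2-microglobulin, the B2M product, and waits in a loading complex for peptide. TAP1 and TAP2 form the transporter that pumps cytosolic peptides into that compartment, TAPBP (tapasin) bridges the transporter and the heavy chain, and TAPBPL is a tapasin relative that edits the bound peptides. Transcription of most of these genes is induced by interferon through response elements in their promoters. The heavy chain genes and B2M are also induced by NLRC5, the class I transactivator. It acts with the RFX, CREB and NF-Y factors on a promoter module that they share.

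The cells were 8 established human lung cancer lines (A549, A427, H1437, H1703, H23, H358, H460 and H661), described in the labels as untreated. Each was grown on tissue culture plastic (2D) and on a thin Matrigel layer under medium holding 2% Matrigel (3D), with density and medium kept similar. Matrigel is a basement membrane extract. RNA from each line and culture went to 1 Affymetrix U133 Plus 2.0 array, with 200 ng of total RNA as input, so the 8 lines formed 8 pairs of arrays and no line has a replicate within a culture. Every value below is on the log2 scale and is either a level, the ratio of a probe set to its own reference over the 16 arrays, or a difference, 3D minus 2D within a line. Levels of different probe sets cannot be compared, and means of several probe sets serve to compare arrays for 1 gene.

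Of the 26 probe sets, 24 entered the tests. The other two, HLA-F 221978_at and TAP2 208428_at, had a median below their reference and count as dim. Many of the 24 cannot be tied to 1 gene with certainty. The array names 11 of them with the suffix x, for probes that can match other genes, and 6 with the suffix s, for probes that match several transcripts. All 7 tested probe sets of HLA-B and HLA-C carry the suffix x, and these genes are near-identical and highly polymorphic, so the gene behind each signal is uncertain. The annotation gives no genome build for the probe sets.

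The median level of the arrays lay between -0.28 and -0.07, and the array nearest to each array was that of the same line in 16 of 16 cases. The 3 array probe sets for 18S ribosomal RNA were lower in 3D in 8 of 8 lines, by -1.15 on average. The differences lay between -3.45 in H23 and -0.08 in H1437. Results with 18S as a covariate are given beside the calls. Since 18S went with culture in every line, that fit separates them poorly, and which of them a lost call goes with was not tested. All 6 epithelial marker genes had a tested probe set. CD3E, which defines T cells, had only dim probe sets, as did the endothelial genes VWF and CDH5. A tested probe set was present for 3 leukocyte genes (PTPRC, CD14 and CD53), 1 endothelial gene and all 4 fibroblast genes. In this fit limma called none of the 20 tested probe sets of the epithelial, leukocyte, endothelial or fibroblast markers between the cultures (2 had an unadjusted p under 0.05). Those were CD14, higher in 6 of 8 lines at 1.01 ± 1.33 (adjusted p = 0.143), and CD53 at 0.16 ± 0.12 (adjusted p = 0.176), and their part in the results was not tested. Of all probe sets tested, 7.10% were called and 26.1% had an unadjusted p under 0.05, so 0 of 20 called says little about the mix of cells.

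Promoters are shown for HLA-B, HLA-C, HLA-F and TAPBPL, whose differences resembled each other over the lines, and for B2M and TAP1, whose differences did not, to show which of the known control elements of this group each holds. The 250 bases before the start of each gene were taken from RefSeq (GRCh38.p14), in which 8 of the 9 members, all but HLA-E, had a window. These are reference sequences, not the alleles of the lines, written 5′ to 3′ in the gene's direction. Capitals mark every match, on either strand, to the interferon-stimulated response element core (GAANNGAAA or GAAANNGAA), the kappa-B site (GGGNNTTCC), the CRE core (TGACG) or the CCAAT box (CCAAT), and neighbouring or overlapping matches run together.
HLA-B, chr6:31357180-31357429, minus strand: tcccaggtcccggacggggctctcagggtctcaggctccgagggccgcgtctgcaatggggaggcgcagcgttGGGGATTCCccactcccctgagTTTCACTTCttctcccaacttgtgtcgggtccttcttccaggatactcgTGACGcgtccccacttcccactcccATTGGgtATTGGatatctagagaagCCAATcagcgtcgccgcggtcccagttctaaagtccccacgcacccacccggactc
HLA-C, chr6:31272093-31272342, minus strand: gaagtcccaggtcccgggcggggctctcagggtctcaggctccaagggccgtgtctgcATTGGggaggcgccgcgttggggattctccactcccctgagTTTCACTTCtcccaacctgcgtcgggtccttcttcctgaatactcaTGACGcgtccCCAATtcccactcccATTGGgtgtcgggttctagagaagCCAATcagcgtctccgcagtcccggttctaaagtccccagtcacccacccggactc
HLA-F, chr6:29723184-29723433, plus strand: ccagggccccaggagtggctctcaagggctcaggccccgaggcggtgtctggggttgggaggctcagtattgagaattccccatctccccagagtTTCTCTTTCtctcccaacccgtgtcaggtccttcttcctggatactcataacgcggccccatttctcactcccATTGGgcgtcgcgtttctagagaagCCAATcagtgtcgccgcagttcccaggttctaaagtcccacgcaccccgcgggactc
B2M, chr15:44711267-44711516, plus strand: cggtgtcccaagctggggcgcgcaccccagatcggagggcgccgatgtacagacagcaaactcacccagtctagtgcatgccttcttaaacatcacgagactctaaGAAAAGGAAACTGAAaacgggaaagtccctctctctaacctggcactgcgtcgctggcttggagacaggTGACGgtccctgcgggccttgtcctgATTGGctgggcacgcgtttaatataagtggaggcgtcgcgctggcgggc
TAP1, chr6:32853705-32853954, minus strand: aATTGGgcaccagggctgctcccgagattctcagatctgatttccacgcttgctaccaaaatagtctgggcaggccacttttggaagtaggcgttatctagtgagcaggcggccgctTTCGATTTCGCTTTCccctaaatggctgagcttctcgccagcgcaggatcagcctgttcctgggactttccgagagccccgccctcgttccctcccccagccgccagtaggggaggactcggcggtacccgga
TAPBPL, chr12:6451399-6451648, plus strand: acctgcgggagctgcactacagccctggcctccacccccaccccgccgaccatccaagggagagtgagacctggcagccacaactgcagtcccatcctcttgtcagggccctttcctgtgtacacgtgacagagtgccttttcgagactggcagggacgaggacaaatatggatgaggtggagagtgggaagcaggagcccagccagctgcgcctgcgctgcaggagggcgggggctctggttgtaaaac

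The response element core was present in 7 of the 8 windows, and in 12.4% of the 35114 windows of the same length over all genes. TAPBPL was the window without it, and it held none of the other 3 motifs either. HLA-B held 1 match to the response element core, 1 to the kappa-B site, 1 to the CRE core and 3 to the CCAAT box. HLA-C held 1 response element core, 1 CRE core and 4 CCAAT boxes, and no kappa-B match. TAP1, TAP2, TAPBP and B2M each held 2 overlapping or adjacent cores of the response element. The CRE core was in 4 of the 8 windows against 21.2% of all windows, the CCAAT box in 5 of 8 against 32.0%, and the kappa-B site in 2 of 8, HLA-B and TAPBP, against 5.78%. A match describes letters only, and a missing match says nothing about a factor.

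Across the 8 lines, 2 of the 24 tested probe sets were called between the cultures, both higher in 3D: TAPBPL 218747_s_at and HLA-E 200904_at. Called means an adjusted p under 0.05, from limma with the line as a block and Benjamini-Hochberg adjustment over all 34727 probe sets tested. Of those, 7.10% were called, 2.66% higher and 4.44% lower in 3D, so 2 of 24 members (8.33%) is a share near the background. The median difference was 0.29 over the 24 members and -0.01 over all probe sets tested, and 18 of the 24 members were above 0. The median of the members was 0.07 with 18S as a covariate and 0.06 over the 7 probe sets without suffix s or x. An unadjusted p under 0.05 was reached by 4 of the 24 members and by 26.1% of all probe sets. In bulk RNA, fewer cells of a type and less RNA per cell cannot be told apart, and a p-value here reflects how far the lines differ from one another in their 3D minus 2D value.

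TAPBPL, the peptide editor, was higher in 3D in 8 of 8 lines on 218747_s_at. Its level went from -1.66 to 0.01 in A549, from -1.60 to -0.13 in H460, from 0.56 to 1.93 in H1437, from 0.46 to 1.64 in H23 and from -0.43 to 0.40 in H358. The step was smaller in H1703 (-0.34 to -0.01), H661 (-2.58 to -2.39) and A427 (0.93 to 1.09). The levels of the cultures overlapped across lines, since H661 in 3D stayed below every other line in 2D, and only the pairing by line separates them. The mean difference was 0.90 ± 0.61 (SD, n = 8 lines), which is 1.86-fold, with a 95% interval of 0.48 to 1.31 and a limma adjusted p of 0.0258. The second probe set of the gene, 218746_at, differed by 0.54 ± 0.94 and was not called (adjusted p = 0.252). Both probe sets were higher in 3D in A549, H1437, H23, H358 and H460, by 0.82 to 1.67. In H661 they differed in sign, with -1.13 on 218746_at and 0.19 on 218747_s_at, as in A427 (-0.36 and 0.15) and H1703 (-0.09 and 0.33). The call was lost without A549 (0.79, adjusted p = 0.0512), H23 (0.86, 0.0634), H358 (0.91, 0.0619) or H460 (0.82, 0.0639), and with 18S as a covariate (0.73, adjusted p = 0.452).

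HLA-E, the nonclassical heavy chain that presents leader peptides of other class I chains to natural killer cells, was higher in 3D in 8 of 8 lines on 200904_at. H358 went from -0.45 to 1.35 and H460 from -0.28 to 1.43, which were the widest steps. H23 went from 0.27 to 1.39 and A549 from 0.21 to 0.99. The steps in A427 (-0.72 to -0.36), H1703 (1.09 to 1.39), H1437 (-0.50 to -0.25) and H661 (-0.51 to -0.32) were all 0.36 or less. In 3D the lines fell into 5 with levels of 0.99 to 1.43 and 3, A427, H1437 and H661, with levels of -0.36 to -0.25, and only H1703 had been at that upper level in 2D. The mean difference was 0.81 ± 0.66 (SD, n = 8), or 1.76-fold, with a 95% interval of 0.36 to 1.27 and a limma adjusted p of 0.0428. The other HLA-E probe sets, 200905_x_at and 217456_x_at, differed by 0.28 ± 0.46 and 0.25 ± 0.35 and were not called (adjusted p = 0.263 and 0.210). Both were lower in 3D in H661, by -0.47 and -0.34. The call on 200904_at was lost without A549 (0.82, adjusted p = 0.0741), H1703 (0.89, 0.0638), H23 (0.77, 0.0942), H358 (0.67, 0.0924), H460 (0.68, 0.0906) or H661 (0.90, 0.0546), and with 18S as a covariate (0.53, adjusted p = 0.583). With the probe sets of a gene averaged before the fit, limma called no member gene: HLA-E had an adjusted p of 0.0971 and TAPBPL of 0.0841, and 2 of the 9 genes had an unadjusted p under 0.05.

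**Figure D1:**
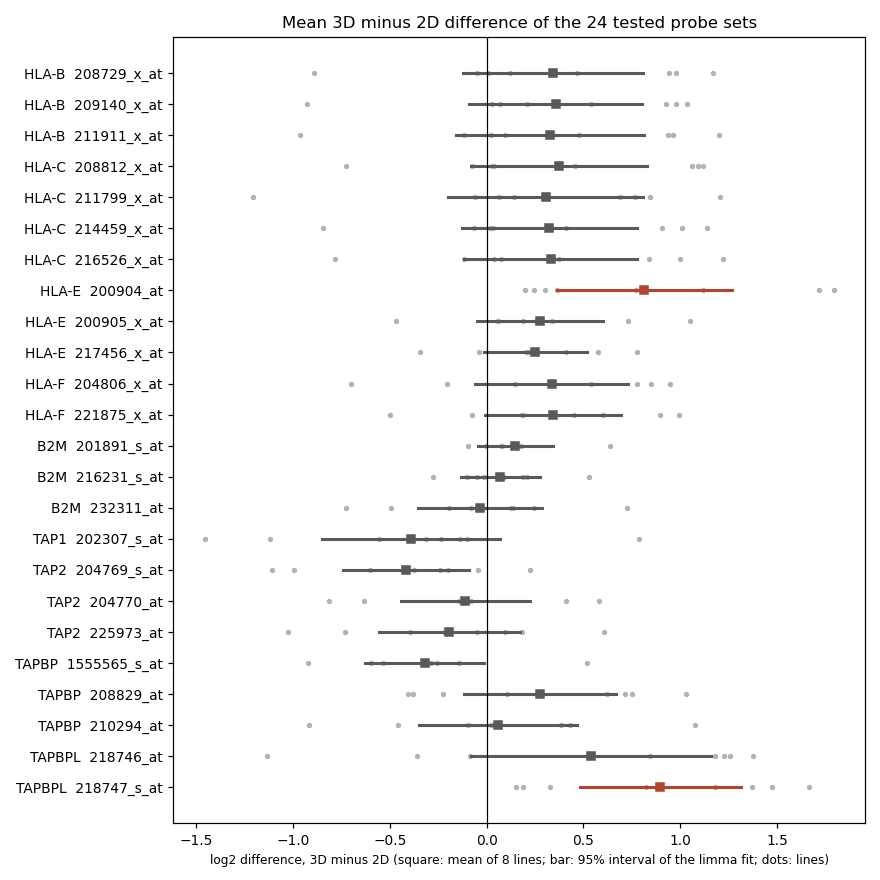
Differences on the log2 scale, 3D minus 2D, of the 24 tested probe sets on the horizontal axis, with 1 row per probe set. Squares are means over 8 lines, bars the 95% interval of the limma fit and dots the single lines. The called probe sets, HLA-E 200904_at at 0.81 and TAPBPL 218747_s_at at 0.90, are in red. For HLA-B, HLA-C and HLA-F the highest dots lie about 1 above 0. The lowest dots, those of H661, lie between -1.21 and -0.72 for HLA-B and HLA-C and at -0.70 and -0.50 for HLA-F.

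The classical heavy chains HLA-B and HLA-C, which present peptides to cytotoxic T cells, did not move as 1 group of 8 lines. On the mean of its 3 probe sets HLA-B went from 0.51 to 1.64 in H460, from 0.16 to 1.12 in H23, from -2.96 to -2.01 in A549 and from 0.17 to 0.67 in H358. It went the opposite way in H661, from -2.08 to -3.01. In H1703 (0.64 and 0.72), H1437 (-1.28 and -1.20) and A427 (-0.19 and -0.22) the cultures differed by 0.08 or less. HLA-B was thus about as far above its 2D level in 3 lines as it was below it in H661. The mean difference was 0.34 ± 0.69 over the 8 lines, and its 3 probe sets, 208729_x_at, 209140_x_at and 211911_x_at, gave 0.34 ± 0.69, 0.36 ± 0.66 and 0.33 ± 0.71 with limma adjusted p of 0.329, 0.291 and 0.375.

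HLA-C followed HLA-B line by line. Its mean level went from 0.27 to 1.33 in H460, from -2.33 to -1.27 in A549, from 0.04 to 0.97 in H23 and from 0.28 to 0.76 in H358, and from -0.79 to -1.68 in H661. The cultures differed by 0.04 or less in A427, H1437 and H1703. The 4 probe sets 208812_x_at, 211799_x_at, 214459_x_at and 216526_x_at gave 0.37 ± 0.68, 0.30 ± 0.75, 0.32 ± 0.67 and 0.33 ± 0.66, with limma adjusted p of 0.277, 0.426, 0.342 and 0.326. Over the 7 probe sets of both genes the difference lay between 0.998 and 1.20 in H460, 0.76 and 1.22 in A549, 0.84 and 1.12 in H23, 0.38 and 0.69 in H358, and -1.21 and -0.72 in H661, and it did not exceed 0.21 in size in A427, H1437 and H1703. The agreement among them cannot count as 7 measurements, since their probes can bind each other's transcripts. Each line has 1 pair of arrays, so these differences between lines had no replicate and were not tested.

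HLA-F, a nonclassical heavy chain that is mostly held inside cells, gave 0.34 ± 0.57 on 204806_x_at and 0.34 ± 0.50 on 221875_x_at (limma adjusted p = 0.260 and 0.202). Its mean level went from 0.43 to 1.40 in H460, from -3.03 to -2.15 in A549, from -0.45 to 0.24 in H23, and from -1.69 to -2.29 in H661. The dim probe set 221978_at shared this pattern in part. H661 was lowest (-0.69) here too, but A549 was at -0.66 and H23 at -0.24, H358 (1.22) and H1703 (1.17) were highest, and the mean was 0.13 ± 0.73. Over the 12 tested heavy chain probe sets, 12 of 12 were higher in 3D in A549, H23, H358 and H460, and 11 of 12 were lower in H661. HLA-E 200904_at was the exception in H661. In H1437 and H1703, 11 of 12 were higher but by little (medians 0.13 and 0.05), and in A427, 7 of the 12 were lower. The medians of these 12 were 0.91 in A549, 0.87 in H23, 0.51 in H358, 1.02 in H460 and -0.75 in H661, while the median over all probe sets lay between -0.03 and 0.04 in each of the 8 lines.

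**Figure D2:**
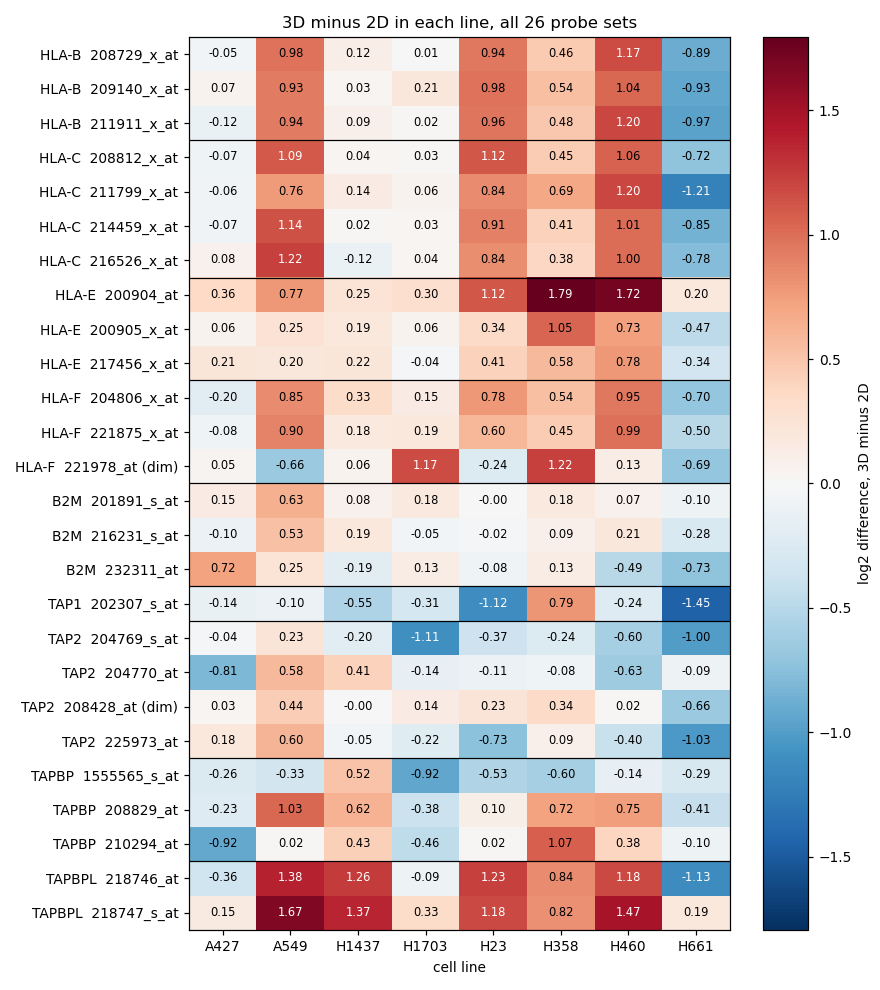
Differences on the log2 scale, 3D minus 2D, for all 26 probe sets (rows) in each line (columns), with red for higher and blue for lower in 3D and the value printed in each cell. A549, H23, H358 and H460 are red across the 12 tested HLA rows, whereas in H661 11 of the 12 are blue. In the TAP1 row 7 of 8 lines are blue.

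Leaving H661 out moved the number of members with an unadjusted p under 0.05 from 4 to 15 of 24. With all lines in the fit, 26.1% of all probe sets had such a p. The share without H661 is not given here, so the 15 have no background beside them. Only 1 member, TAPBPL 218747_s_at, was then called. H661 was singled out after its opposite differences had been seen, so this count describes its pull on the means and is no test. Many of these probe sets also share probes that can match several HLA genes, so they are not 15 separate measurements. The 18S difference in H661 (-1.23) lay between those of A549 (-0.98) and H460 (-1.61), where the heavy chains were higher. H23, with the lowest 18S difference (-3.45), and H358 (-0.81) had HLA-B differences of 0.96 and 0.49, and A427 and H1437, with the least 18S difference, had HLA-B differences of -0.03 and 0.08. H1703, with an 18S difference of -0.94 close to that of A549, had an HLA-B difference of 0.08 against 0.95 in A549. With 18S as a covariate the fitted difference of the 7 HLA-B and HLA-C probe sets lay between -0.02 and 0.04. HLA-B 208729_x_at was at 0.02 and HLA-C 208812_x_at at -0.02. That fit separates 18S from culture poorly, because 18S was lower in 3D in every line and near 0 only in A427 (-0.13) and H1437 (-0.08). Over all probe sets tested it left 2 called, against 2467 without the covariate. Whether the HLA-B and HLA-C differences go with 18S or with culture cannot be told apart.

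B2M, the light chain that every class I heavy chain needs, differed little. Its mean level over 3 probe sets went from -0.44 to 0.03 in A549, from -0.89 to -0.63 in A427 and from -0.27 to -0.64 in H661, and the cultures differed by 0.13 or less in the other 5 lines. Probe sets 201891_s_at and 216231_s_at gave 0.15 ± 0.22 and 0.07 ± 0.24, with 95% intervals of -0.04 to 0.34 and -0.13 to 0.28 (limma adjusted p = 0.303 and 0.662). The third, 232311_at, gave -0.03 ± 0.45 with A427 at 0.72 and H661 at -0.73. On both of the first probe sets A549 had the highest difference, 0.63 and 0.53. H460, with the widest HLA-B difference (1.14), had B2M at 0.63 in 2D and 0.56 in 3D. That lower mean rests on 232311_at (-0.49 in H460), while 201891_s_at and 216231_s_at were higher there, by 0.07 and 0.21.

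The peptide transporter did not follow the heavy chains in H23 and H460, although both were lower in H661. None of its tested probe sets was called. TAP1 was lower in 3D in 7 of 8 lines, with a mean of -0.39 ± 0.68 on its single probe set 202307_s_at (limma adjusted p = 0.261, not called). It went from 1.63 to 0.51 in H23 and from -0.48 to -1.93 in H661. It also went from -1.38 to -1.93 in H1437, and the lower values in H1703 (1.22 to 0.91), H460 (0.97 to 0.73), A427 (0.26 to 0.13) and A549 (-0.14 to -0.24) were steps of 0.31 or less in size. H358 went the other way, from -0.99 to -0.20. In H23 TAP1 was thus lower by -1.12 in the culture in which HLA-B was higher by 0.96.

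TAP2, the partner subunit of TAP1, gave -0.42 ± 0.46 on 204769_s_at, lower in 7 of 8 lines, with an unadjusted p under 0.05 but an adjusted p of 0.107 (limma). On that probe set H1703 went from 1.94 to 0.83, H661 from -1.72 to -2.71 and H460 from 0.56 to -0.04, and A549 alone was higher, by 0.23. Probe sets 225973_at and 204770_at gave -0.19 ± 0.52 and -0.11 ± 0.47 (adjusted p = 0.489 and 0.679), and the dim 208428_at 0.07 ± 0.33. Over the 4 tested TAP1 and TAP2 probe sets, 4 of 4 were lower in 3D in H1703, H23, H460 and H661, with medians of -0.27, -0.55, -0.50 and -1.01. A549 was the line in which 3 of 4 were higher, with a median of 0.40. H23 and H460 therefore had higher heavy chain values and lower transporter values in 3D, and H661 had lower values of both.

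The 3 probe sets of TAPBP, the tapasin gene, disagreed in sign. 1555565_s_at gave -0.32 ± 0.42 and was lower in 7 of 8 lines (limma adjusted p = 0.175). 208829_at gave 0.28 ± 0.57, with A549 going from -1.22 to -0.19, H460 from -1.92 to -1.17 and H358 from -0.53 to 0.18 (adjusted p = 0.349). In those 3 lines 1555565_s_at was lower, by -0.33, -0.14 and -0.60. 210294_at gave 0.06 ± 0.60 with values from -0.92 in A427 to 1.07 in H358 (adjusted p = 0.873). Without H1437, 1555565_s_at was called lower at -0.44, the 1 added call that leaving out a line produced. No direction for TAPBP can be given from these probe sets.

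**Figure D3:**
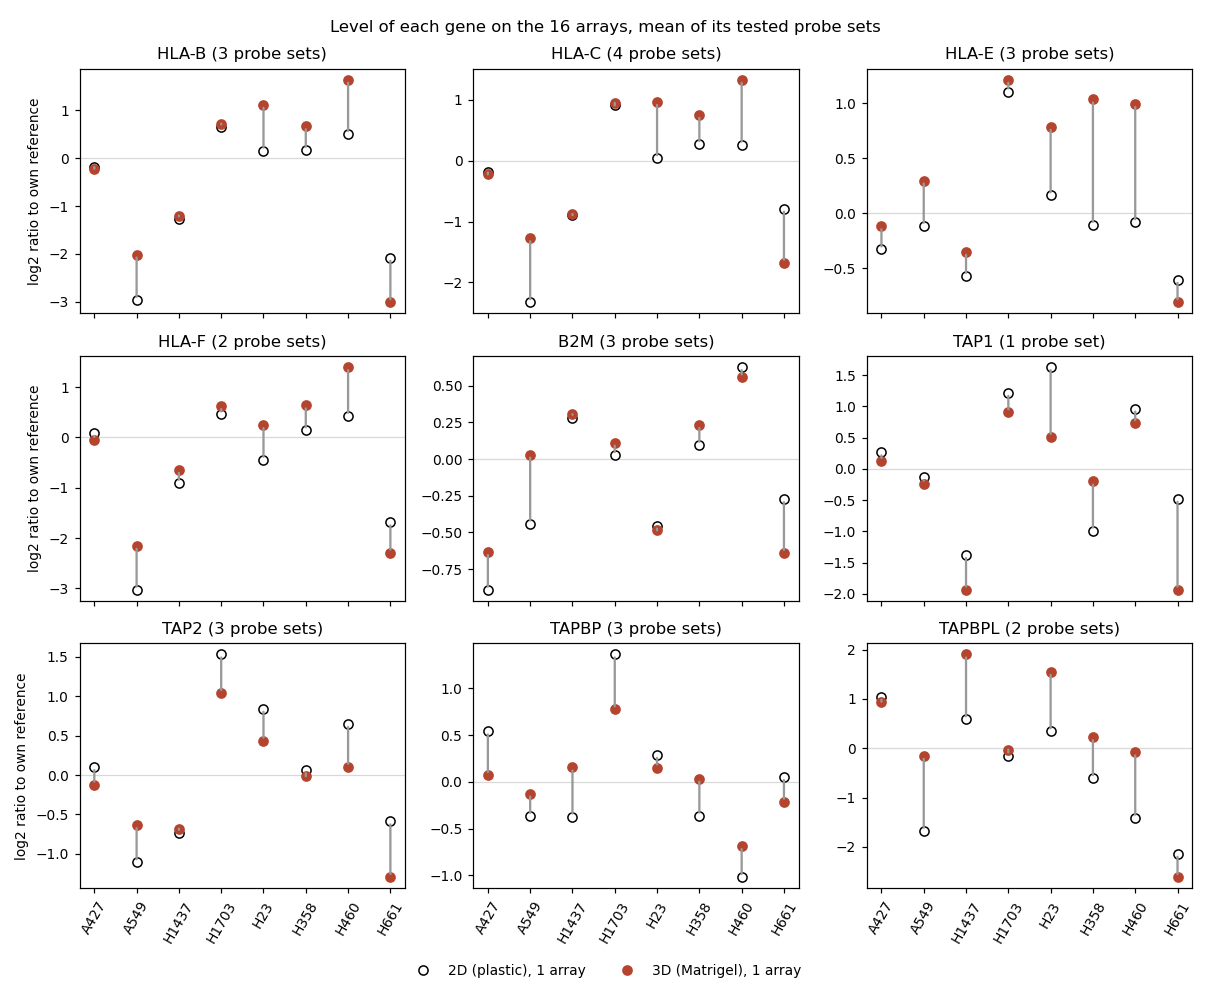
Level (log2 ratio to the gene's own reference) of each of the 9 genes on the 16 arrays as the mean of its tested probe sets, with open circles for 2D, filled circles for 3D and a grey line joining the pair of each cell line. Vertical axes differ between panels. HLA-B, HLA-C and HLA-F have A549 and H661 as their lowest lines, and TAP1 is lower in 3D in 7 of 8 lines.

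The members were then compared between lines. The moderated F test of limma over the 8 lines, with culture in the fit, called 22 of 24 member probe sets, against 76.1% of all probe sets tested. The exceptions were B2M 232311_at (adjusted p = 0.421) and TAPBP 210294_at (adjusted p = 0.160). Each line has 2 arrays in this test, 1 per culture, so its error is the spread of the within-line difference around the mean culture difference.

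HLA-B was lowest in H661 (-2.55, mean of its cultures) and A549 (-2.49), whose arrays overlapped. It was next lowest in H1437 (-1.24) and A427 (-0.20), each apart from its neighbours. The upper lines H358 (0.42), H23 (0.64), H1703 (0.68) and H460 (1.08) overlapped each with the next. HLA-C had nearly the same order, from A549 (-1.80), H661 (-1.23) and H1437 (-0.88), neighbours that overlapped, through A427 (-0.21) to H23 (0.50), H358 (0.52), H460 (0.80) and H1703 (0.93), which overlapped. HLA-F ran from A549 (-2.59) and H661 (-1.99) to H1703 (0.54) and H460 (0.91). Of the 9 tested HLA-B, HLA-C and HLA-F probe sets, limma called A549 against the mean of the other 7 lines on 9, all below it (31.8% of all probe sets were called, in either direction), and H661 on 8, all below it (40.1%). It called H1703 on 9 (35.8%) and H460 on 8 (35.1%), all above it. On HLA-B 209140_x_at these contrasts were -2.18 for A549, -2.35 for H661, 1.48 for H1703 and 1.46 for H460, with adjusted p of 0.000432, 0.000155, 0.00366 and 0.00397. These probe sets carry the suffix x, and HLA-B and HLA-C are highly polymorphic. A difference in level between lines can thus come from the amount of RNA or from how well the probes match a line's alleles. The 2 cannot be told apart here.

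A549 was low in HLA-B, HLA-C and HLA-F but stood mid-order in HLA-E and B2M. HLA-E was highest in H1703 (1.16), apart from H23 (0.47), H358 (0.46) and H460 (0.46), which overlapped, and A549 was the fifth of 8 at 0.09. H661 (-0.71) was lowest, by a gap of 0.04 between its arrays and those of H1437 (-0.46). B2M ran from H460 (0.59) and H1437 (0.29) to H23 (-0.47) and A427 (-0.76), with H661 at -0.46 and A549 at -0.20.

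The loading genes had orders of their own. TAP1 was highest in H23 (1.07), H1703 (1.06) and H460 (0.85), which overlapped, and lowest in H661 (-1.21) and H1437 (-1.66), which overlapped as well. TAP2 was highest in H1703 (1.28), apart from H23 (0.64), and lowest in H1437 (-0.71), A549 (-0.87) and H661 (-0.94). TAPBP was highest in H1703 (1.07) and lowest in H460 (-0.85), both apart from their neighbours. TAPBPL was highest in H1437 (1.24), A427 (0.99) and H23 (0.95), which overlapped, and lowest in H661 (-2.38), which was apart from A549 (-0.91). On TAPBPL 218747_s_at H661 differed from the mean of the other 7 lines by -2.69 (limma, adjusted p = 3.7e-05). Over all 24 probe sets H1703 was called above the other lines on 18 and below on 0, and H661 below on 15 and above on 0. H460 was split, above on 11 and below on 3, the latter on TAPBP and TAPBPL. Of all probe sets tested, 35.8% were called for H1703, 40.1% for H661 and 35.1% for H460, in either direction.

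The members resembled each other unequally. Over the 16 arrays, which share lines in pairs, Pearson's r of HLA-B with HLA-C was 0.97 and with HLA-F 0.97, whereas with B2M it was 0.35 and with TAPBP 0.17. Over the 8 within-line differences r of HLA-B was 0.996 with HLA-C, 0.981 with HLA-F, 0.85 with TAPBPL and 0.78 with HLA-E, and 0.40 with TAP1 and 0.38 with TAP2. For HLA-E it was 0.63 with TAP1 and 0.15 with TAP2. These are descriptions over few points, and the HLA values share probes that can match several of the genes.

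Genes outside the group were ranked by likeness to the mean profile of the 9 members, with 1 probe set for each of 14104 genes. Over the 16 arrays the nearest were HLA-J (r = 0.95), a class I pseudogene, then GHR (0.88), the growth hormone receptor, JUNB (0.87), TBP (0.87), LIFR (0.86), IFITM3 (0.86), an interferon-inducible membrane protein, PSMB9 (0.85) and HLA-G (0.85). The HLA-J and HLA-G probe sets carry the suffix x and can bind member transcripts. Over the 8 within-line differences the nearest were SDC3 (0.98), a cell surface proteoglycan, ITGB5 (0.97), an integrin subunit, CTSD (0.96), a lysosomal protease, RNPEPL1 (0.96), LOC105378577 (0.95), C1QL1 (0.95), FNDC10 (0.95) and BLTP3A (0.94). With 8 points and 14104 genes searched, such values describe these lines only.

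Among 18 known regulators of class I transcription, 16 had probe sets of their own and 43 probe sets were tested, of which 2 rose and 5 fell in 3D (16.3%, against 7.10% of all probe sets; median -0.12). Several of these probe sets share a gene, here and in the lists below, so their counts are not counts of genes. NLRC5, the transactivator, was not called on 226474_at (0.29 ± 0.81, limma adjusted p = 0.482), with differences of 1.11 in H23, 1.06 in H1437, 0.91 in H460, 0.79 in A549 and -1.16 in H661. IRF1, an interferon-induced activator of these promoters, gave 0.32 ± 0.56 on 202531_at and 0.31 ± 0.36 on 238725_at (adjusted p = 0.275 and 0.142). IFNGR1, the ligand-binding chain of the interferon gamma receptor, rose by 0.58 ± 0.39 and 0.54 ± 0.41 on 2 probe sets in 8 of 8 lines (adjusted p = 0.0309 and 0.0428), and both calls were kept in 1 of the 8 fits that leave out a line. CREB1, which binds the CRE core, fell on 3 of 7 probe sets, most on 237289_at (-0.49 ± 0.27, adjusted p = 0.0257, kept in 3 of 8 such fits). NFYC, a subunit of the CCAAT-binding factor, fell on 211797_s_at (-0.52 ± 0.36, adjusted p = 0.0386, kept in 1 of 8). RFX5 fell on 202964_s_at (-0.37 ± 0.24, adjusted p = 0.0415), a call kept in 0 of the 8 fits, whose adjusted p was 0.0560 to 0.0992.

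**Figure D4:**
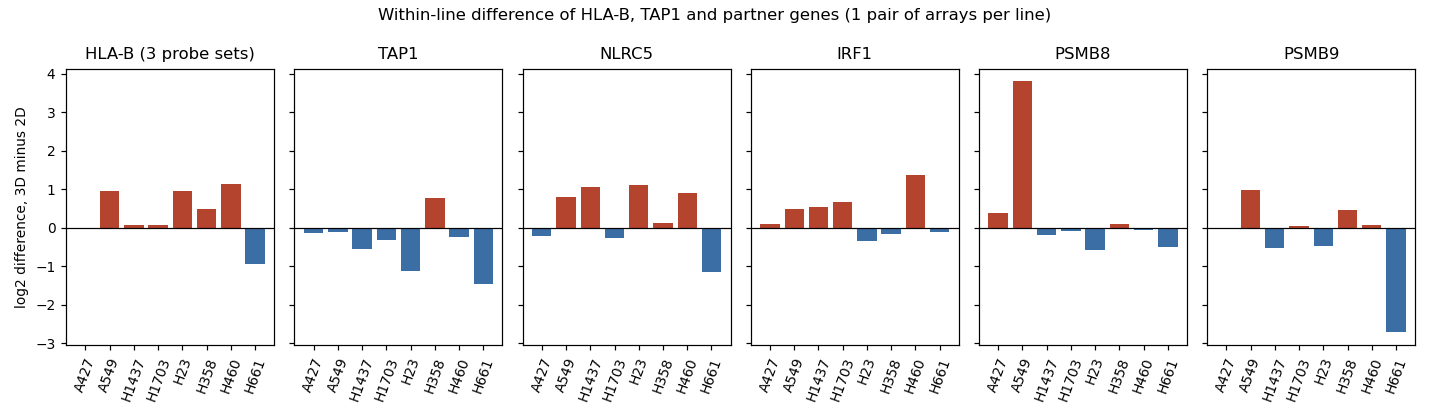
Differences on the log2 scale, 3D minus 2D, in each of the 8 lines for HLA-B (mean of 3 probe sets), TAP1, NLRC5, IRF1 (202531_at), PSMB8 and PSMB9, as bars from 0 with 1 pair of arrays per bar. In H661, HLA-B (-0.93), TAP1 (-1.45), NLRC5 (-1.16) and PSMB9 (-2.71) are all below 0, and the bar of PSMB8 in A549 (3.81) starts from a low 2D level of -5.40.

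Partners in loading and trimming included 24 tested probe sets of 7 genes, with 2 higher, 4 lower and a median of 0.05. The share called, 6 of 24, was above the 7.10% of all probe sets, and 4 of these 6 were of UGGT1. UGGT1, the glucosyltransferase that returns misfolded glycoproteins to the chaperones, fell on 4 of 5 probe sets, by -1.27 ± 0.43 on 222568_at and in 8 of 8 lines (limma adjusted p = 0.00506). Of the 8 fits that leave out a line, these calls were kept in 8 (222568_at), 6 (218257_s_at), 5 (222569_at) and 0 (244814_at). PDIA3, the disulfide isomerase of the loading complex, rose on 1 of 3 probe sets, 227033_at (0.67 ± 0.34, adjusted p = 0.0176). ERAP1, the protease that trims peptides for class I, rose on 214012_at (0.68 ± 0.41, adjusted p = 0.0235, kept in 4 of 8 fits that leave out a line), while its other 3 tested probe sets gave 0.36, 0.16 and -0.05 and were not called.

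The 4 tested probe sets of the immunoproteasome and its activator, which cut peptides suited to class I, included none called, and 1 had an unadjusted p under 0.05. The smallest p was that of PSME1 (0.33 ± 0.28, limma adjusted p = 0.0726), followed by PSMB10 (-0.24 ± 0.40, adjusted p = 0.278). PSMB8 on 209040_s_at gave 0.37 ± 1.42, a mean that rests on A549, where it went from -5.40 to -1.59. The lowest ratio deposited is 0.01, so a step from a level this low has an uncertain size. In H661, also low, it went from -5.93 to -6.43. PSMB9, which lies beside TAP1 in the genome and shares a promoter region with it, went from -2.79 to -5.50 in H661 and was higher by 0.98 in A549, with a mean of -0.27 ± 1.10 (adjusted p = 0.637).

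Class II genes, which present peptides from outside the cell, had 11 tested probe sets with 1 higher and 0 lower (median 0.47). The share called was 9.09%, against 7.10% of all probe sets. HLA-DMA, the class II peptide editor, rose by 0.98 ± 0.87 (limma adjusted p = 0.0497). That call was kept without A427 only, among the fits that leave out a line (adjusted p 0.0380 to 0.111), and was lost with arrays centred, with quantile normalisation and with no variance trend. HLA-DPA1 on 211991_s_at (0.53 ± 0.49, adjusted p = 0.0745) and CTSS, the protease that degrades the invariant chain, on 232617_at (0.96 ± 1.08, adjusted p = 0.0956) were not called. CD74, that invariant chain, had 1 tested probe set at 0.06 ± 0.10. Of 27 tested probe sets of class I-like genes, 0 rose and 4 fell, all of HFE, which regulates iron uptake (median of the list -0.26). The share called was 14.8%, against 7.10% of all probe sets. HFE had 15 probe sets, and its called ones lay between -1.01 and -0.46 (limma adjusted p = 0.0140 for the former and 0.0218 for the latter). MR1, which presents microbial metabolites (0.51 ± 0.45 on 207565_s_at, adjusted p = 0.0590), and ULBP2, a stress ligand (-0.65 ± 0.72 on 238542_at, adjusted p = 0.0950), were not called.

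Of the interferon-stimulated genes other than members, 35 probe sets of 23 genes were tested, 2 rose and 0 fell, and their median was 0.30. The share called, 5.71%, was below the 7.10% of all probe sets. IFITM1 rose by 1.59 ± 0.87 in 8 of 8 lines (limma adjusted p = 0.0160) and IFITM2 by 0.97 ± 0.85 (adjusted p = 0.0498), and these near-identical genes can share probes. The IFITM2 call was kept in 0 of the 8 fits that leave out a line (adjusted p 0.0504 to 0.120). IFIT2 on 226757_at gave 0.60 ± 0.51 (adjusted p = 0.0513). Of the 20 called probe sets in the 6 lists, 15 remained called without A427, 13 without H1437, 9 without H23, 9 without H661, 8 without A549, 6 without H358, 5 without H460 and 4 without H1703. Calls on UGGT1 222568_at, PDIA3 227033_at, HFE 211330_s_at and IFITM1 were kept in all 8 of these fits. With 18S as a covariate, limma called 0 of the 20, and 15 of them had an unadjusted p under 0.05.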

How the data were processed

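Total RNA of 16 cultures, 8 lung cancer cell lines in 2D and in 3D, had been hybridised to 1 array each. The deposited values are log2 ratios of each probe set to a reference of its own. How probes were summarised and arrays normalised, and with which software, is not given in the sources used here. From the values, 63.5% of the 54675 probe sets have a median at their reference (within 0.001, log2). These 34727 were tested, and the rest, whose median lies below it, count as dim.

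Genes were named from the platform's annotation, with symbols updated through the RefSeq table, and 41097 probe sets have 1 symbol, 1801 several and 11777 none. The 3D minus 2D fit used limma 3.58.1 (R 4.3.3; lmFit and eBayes with trend), cell line as block, Benjamini-Hochberg over all tested probe sets, called at an adjusted p under 0.05. A second fit of line plus culture gave the F test over lines and each line against the mean of the other 7. The pairing comes from the cell line in the labels. Pearson's r between the arrays of a line was 0.755 to 0.920, and the same line was nearest for 16 of 16 arrays. The replicate numbers are deposition order only and were not used for pairing. The fits were tested on simulated data.

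The members and the gene lists were chosen with earlier results of these data known. All members are named. From each of 6 partner lists, up to 3 genes with the smallest p were named, with NLRC5, IRF1, PSMB8, PSMB9 and CD74 always, and 8 genes most like the mean member profile over arrays and 8 over differences. RFX5 was named after its values were seen. Where RefSeq gives several promoter windows, the one nearest the outermost gene start was used. Alternatives changed the filter, scaling, block, variance trend, 18S covariate, probe set suffix and gene summary, and left out each line.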

Additional observations from a re-analysis of the deposited data

Results flagged for a closer look

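In each of the 26 member probe sets, the highest and the lowest of the 8 within-line differences were compared with their nearest neighbour, as a share of the whole range, and a share above Dixon's critical value for 8 was noted. Chance gives such a value in about 1 in 20 groups, and 2 were found among the 26. B2M 201891_s_at differed by 0.63 in A549, with the next line at 0.18. The dim TAP2 208428_at differed by -0.66 in H661, while the other 7 lines lay between -0.00 and 0.44.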

How the results depend on the processing

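The count of member probe sets called between the cultures was 2. It was also 2 with each array centred, with quantile normalisation and without a variance trend. It was 0 of 26 with no filter (4 with an unadjusted p under 0.05), where TAPBPL 218747_s_at had a limma adjusted p of 0.0525 and HLA-E 200904_at of 0.0822, 0 without the cell line as replicate block (1 with an unadjusted p under 0.05), 0 with 18S as a covariate (1), and 1 of 7 with all probe sets of suffix s or x left out. Leaving out 1 line gave 0 to 3. The count over all tested probe sets moved likewise, from 2467 to 1091 with no filter, 8 with no block, 2 with the covariate, 1399 without the suffixes, and 554 to 2565 with a line left out. By gene, 2 members were called on any probe set or on the probe set of highest mean, and 0 with probe sets averaged. For HLA-E and TAPBPL the probe set of highest mean was the called one, 200904_at and 218747_s_at, so that count repeats the calls. HLA-F had no value there, since its probe set of highest mean is dim. Levels of different probe sets cannot be compared, so the highest mean does not mark the brightest one. The median member difference, 0.29, was 0.06 without the suffixes, 0.07 with the covariate and 0.21 to 0.42 with a line left out. The number of members that differ between lines, 22, was the same with no filter, with quantile normalisation and with arrays centred, the settings run for it. No member difference that was called changed sign, but most settings could not have changed it. HLA-E 200904_at and TAPBPL 218747_s_at were higher in 3D in 8 of 8 lines, so leaving out a line cannot reverse their means. The filter, block and variance trend do not alter these means. The ratios give no signal over background, so the dim probe sets cannot be judged further.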
